A study of Mus musculus with 6 samples.

Results

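The nuclear genome encodes most of the protein subunits of the oxidative phosphorylation (OXPHOS) system, and these genes were followed here in dorsal hippocampus after knockdown of the long non-coding RNA Snhg11. Members were chosen by symbol alone, as protein-coding genes of the GENCODE M21 mouse annotation whose names begin with Ndufa, Ndufb, Ndufc, Ndufs or Ndufv (complex I), Sdha to Sdhd (complex II), Uqcr (complex III), Cox4i, Cox5, Cox6, Cox7 or Cox8 (complex IV), or Atp5 (complex V). Assembly factors (Ndufaf, Sdhaf, Uqcc) were left out. The rule gave 86 gene identifiers among 55401, under 85 symbols, since Atp5o is annotated under 2 identifiers. Of these, 38 belong to complex I, 4 to complex II, 8 to complex III, 18 to complex IV and 18 to complex V. Ndufa4 and Ndufa4l2 were kept with complex I because the rule goes by symbol, although the Ndufa4 protein is found in complex IV.

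The bulk RNA-seq libraries came from male wild-type littermates of Ts65Dn mice, 4 months of age. Each received 50 µg per hemisphere of an antisense oligonucleotide (ASO) in the dorsal dentate gyrus, and dorsal hippocampus was taken 3 days later. The 3 Snhg11-ASO animals received a gapmer against Snhg11, which recruits RNase H to its target RNA, and the 3 Control-ASO animals a scrambled sequence. The tissue was not sorted, so every value is a mixture of neurons, glia and vessels, and fewer cells of a type cannot be told apart from less RNA per cell.

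Oxidative phosphorylation is carried out in the inner mitochondrial membrane. Complexes I and II pass electrons from NADH and succinate to ubiquinone, complex III passes them to cytochrome c, and complex IV hands them to oxygen. Complexes I, III and IV pump protons, and complex V, the ATP synthase, uses the return of those protons to make ATP. Complexes I, III, IV and V combine a few subunits made from mitochondrial DNA with many imported from the cytosol, while complex II is wholly nuclear-encoded. Neurons depend on this pathway for the ATP that restores ion gradients after firing.

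None of the 83 subunit genes that passed the filter on low counts was called between Snhg11-ASO and Control-ASO at an adjusted p of 0.05 (edgeR quasi-likelihood test, Benjamini-Hochberg adjustment over 19969 genes; the smallest adjusted p of a subunit gene was 0.582). The percentage of all genes called in this test was 0, so the count says little about the subunits in particular. At an unadjusted p under 0.05, 1 subunit gene and 1619 of the 19969 genes (8.11%) were found, and DESeq2 called 258 of 17966 genes (1.44%) but again 0 subunit genes. Fold changes were nevertheless tilted to one side. Of the 83 genes, 77 had a lower and 6 a higher estimate in Snhg11-ASO, against 9653 lower and 10316 higher among all genes. The median log2 fold change was -0.12 over the subunit genes and 0.01 over all genes. This tilt was largest in Snhg11-ASO replicate 1, smaller in replicate 2 and slightly the other way in replicate 3, as described below.

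Control-ASO libraries held 28951250 to 34293344 gene-assigned read pairs on the transcribed strand, and Snhg11-ASO libraries held more, at 38556524 to 43997537. Of these pairs the subunit genes took 163432 to 254746 (0.465% to 0.579%) over all libraries. The part of depth in the subunit values was not tested. Snhg11 itself was at 551, 436 and 209 CPM (counts scaled to the effective library size) in the 3 Control-ASO libraries and at 139, 65.4 and 69.4 CPM in the Snhg11-ASO libraries. The groups did not overlap, the Snhg11-ASO mean was 22.9% of the control mean, and the log2 fold change was -2.13 ± 0.43 (SE; edgeR adjusted p = 0.395, adjusted p = 6.3e-05 in DESeq2). Snhg11-ASO replicate 1 kept the highest Snhg11 level of its group. It also stood apart in glial and endothelial markers. The sum over 5 microglial markers was 74.6 CPM there against 160.3 to 278 CPM in the other 5 libraries, and Cx3cr1, the fractalkine receptor of microglia, was at 7.84 CPM against 32.2 to 55.8 CPM. All 5 of these markers were lowest in this library, as were 4 of 5 oligodendrocyte markers (summed level 1176 CPM, against 1301 to 2891 CPM in the others) and 3 of 5 astrocyte markers (summed level 1493 CPM, against 1130 to 3578 CPM). The sum over 4 endothelial markers was highest in this library, at 123 CPM against 70.7 to 95.6 CPM, with 3 of the 4 above all controls. Prox1, the granule cell marker of the injected dentate gyrus, was present in every library at 82.1 to 167 CPM. Choroid plexus markers varied in both groups, with a sum over 7 genes of 1899, 36.5 and 1232 CPM in Control-ASO replicates 1 to 3. The sum was 1301, 124.5 and 68.2 CPM in Snhg11-ASO replicates 1 to 3. The part that these cell mixtures have in the subunit values was not tested.

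The library medians show where the tilt came from. Each gene's log2 CPM was set against its mean in the 3 Control-ASO libraries, and the median of these deviations over the 83 genes was -0.03, 0.04 and -0.01 in Control-ASO replicates 1 to 3. It was -0.36 in Snhg11-ASO replicate 1, -0.10 in replicate 2 and 0.05 in replicate 3. Replicate 1 therefore lay far below the controls, replicate 2 slightly below, and replicate 3 above all of them. The median over all 19969 genes stayed between 0.00 and 0.01 in every library. In replicate 1, 77 of the 83 subunit genes were below all 3 controls, where 37.4% of all genes were. In replicate 2, 47 were below all controls (23.8% of all genes), and in replicate 3 only 6 were (25.5%), while 34 were above all controls (27.6%). Replicate 1 was the lowest of the 3 Snhg11-ASO libraries for 76 of the 83 genes, against 42.4% of all genes.

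**Figure D1:**
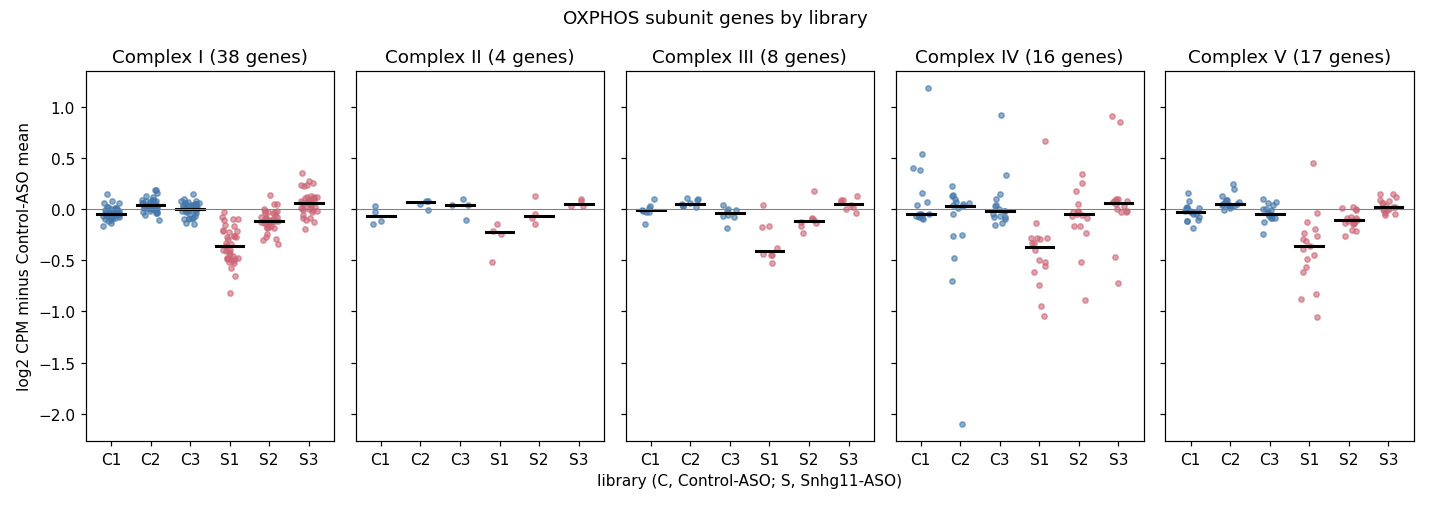
Each point is 1 subunit gene in 1 library, with log2 CPM minus the gene's Control-ASO mean on the vertical axis, Control-ASO libraries in blue (C1 to C3) and Snhg11-ASO libraries in red (S1 to S3), and black bars at the medians. In every complex the S1 median lies below all others (-0.23 to -0.41), while the S3 median is above 0.

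Without Snhg11-ASO replicate 1 the median log2 fold change of the subunit genes was -0.02, with 52 genes lower and 31 higher. Without replicate 3 it was -0.23, with 82 lower and 1 higher. Leaving out replicate 2 gave -0.14, and leaving out any 1 control gave -0.09 to -0.14. In none of these edgeR fits was a subunit gene called, and among all genes tested only 0 to 2 were. Spread within the groups differed as well. The median coefficient of variation of CPM over the subunit genes was 5.36% in Control-ASO and 14.9% in Snhg11-ASO (n = 3 each), and the SD was larger in Snhg11-ASO for 77 of 83 genes. The 95% interval of the log2 fold change lay wholly between -1 and 1 for 78 of the 83 genes, and within a 1.5-fold difference in either direction for 67 of them.

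The complexes resembled each other. The median log2 fold change was -0.11 over the 38 genes of complex I, -0.08 over the 4 of complex II, -0.11 over 8 of complex III, -0.14 over 16 of complex IV and -0.15 over 17 of complex V. Library medians in Snhg11-ASO replicates 1, 2 and 3 were -0.36, -0.11 and 0.06 for complex I. They were -0.23, -0.07 and 0.05 for complex II, and -0.41, -0.12 and 0.05 for complex III. For complex IV they were -0.37, -0.05 and 0.06, and for complex V -0.36, -0.11 and 0.02. The order of the 3 libraries was thus the same in all 5 complexes, and the complexes differed among themselves by less than the libraries did. Without replicate 1 the complex medians were all between -0.04 and -0.01.

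**Figure D2:**
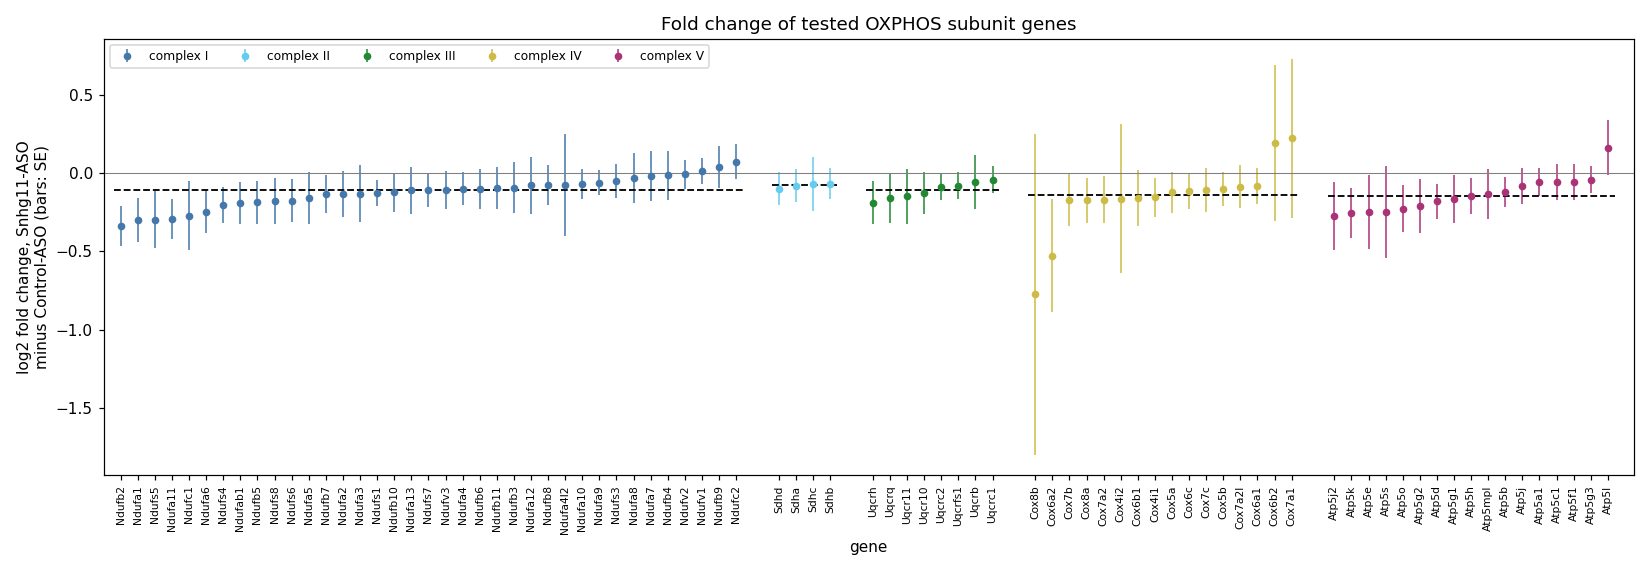
The log2 fold change of 82 of the tested genes (Snhg11-ASO minus Control-ASO, with SE bars) is plotted by complex, and dashed lines mark the median over all tested genes of each complex, from -0.08 in complex II to -0.15 in complex V. Most estimates lie slightly below 0, and the widest bars belong to the scarce isoforms of complex IV.

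Promoter sequence is one feature that the naming rule did not use. Nuclear respiratory factor NRF1, the ETS factor GABP and YY1 are known to bind promoters of many OXPHOS genes. RefSeq promoters (GRCm38.p6, from 250 bases before to 50 after each start) were found for 67 of the 86 identifiers, with 72 promoters in all. The NRF1 sequence (GCGCA, any base, GCGC) occurred in the promoters of 17 of 67 subunit genes (25.4%) and of 5.19% of the 27025 genes with a promoter, reading both strands. The YY1 sequence AANATGGC occurred in 16 (23.9%, against 6.96%), the ETS sequence CCGGAAGT in 5 (7.46%, against 4.31%) and TATAAA in 7 (10.4%, against 15.7%). No copy of one motif overlapped a copy of another in the subunit promoters, and 36 of the 67 genes held at least 1 of the first 3. By complex, the NRF1 sequence was found for 7 of 33 genes of complex I, 2 of 3 of complex II, 1 of 5 of complex III, 1 of 13 of complex IV and 6 of 13 of complex V, and the YY1 sequence for 12 of the 33 complex I genes. Median GC content was 57.3% in the subunit promoters and 52.7% in all promoters. These shares are a description of letters in a window and not of binding.

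The 250 bases before the start are shown for 1 or 2 genes of each complex described below, with the motifs found in capitals. Ndufb2 and Ndufa11 are complex I genes whose groups did not overlap, Sdha carries 3 NRF1 sequences, Uqcrh an ETS sequence on the reverse strand, Cox6a1 2 NRF1 sequences, and Atp5k 1. Ndufb2 holds none of the 4 motifs in this window.
Ndufb2, chr6:39592315-39592564, plus strand: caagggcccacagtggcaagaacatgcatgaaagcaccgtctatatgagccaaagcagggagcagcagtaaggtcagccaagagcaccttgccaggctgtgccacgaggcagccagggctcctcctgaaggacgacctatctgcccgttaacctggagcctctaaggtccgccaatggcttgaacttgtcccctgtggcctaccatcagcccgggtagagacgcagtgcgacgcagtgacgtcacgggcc
Ndufa11, chr17:56717512-56717761, plus strand: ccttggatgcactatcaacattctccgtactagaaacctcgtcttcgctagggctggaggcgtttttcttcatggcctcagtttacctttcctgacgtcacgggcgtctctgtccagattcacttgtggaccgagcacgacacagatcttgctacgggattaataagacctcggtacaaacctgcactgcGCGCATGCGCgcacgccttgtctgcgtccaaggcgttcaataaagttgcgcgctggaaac
Sdha, chr13:74350241-74350490, minus strand: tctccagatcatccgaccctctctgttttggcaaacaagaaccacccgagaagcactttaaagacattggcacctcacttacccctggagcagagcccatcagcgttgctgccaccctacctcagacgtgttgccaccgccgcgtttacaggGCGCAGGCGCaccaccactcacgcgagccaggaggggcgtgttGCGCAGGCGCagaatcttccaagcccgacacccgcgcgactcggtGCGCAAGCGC
Uqcrh, chr4:116075071-116075320, minus strand: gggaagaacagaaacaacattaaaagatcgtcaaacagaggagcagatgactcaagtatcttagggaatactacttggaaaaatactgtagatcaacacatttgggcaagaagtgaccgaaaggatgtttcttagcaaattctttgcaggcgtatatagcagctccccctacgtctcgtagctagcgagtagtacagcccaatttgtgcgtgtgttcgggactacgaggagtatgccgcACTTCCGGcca
Cox6a1, chr5:115348959-115349208, minus strand: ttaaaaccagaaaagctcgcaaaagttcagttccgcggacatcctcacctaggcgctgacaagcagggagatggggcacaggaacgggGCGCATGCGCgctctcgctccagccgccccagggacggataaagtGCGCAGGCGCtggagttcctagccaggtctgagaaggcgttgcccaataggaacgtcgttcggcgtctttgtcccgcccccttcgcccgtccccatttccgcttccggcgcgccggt
Atp5k, chr5:108434400-108434649, minus strand: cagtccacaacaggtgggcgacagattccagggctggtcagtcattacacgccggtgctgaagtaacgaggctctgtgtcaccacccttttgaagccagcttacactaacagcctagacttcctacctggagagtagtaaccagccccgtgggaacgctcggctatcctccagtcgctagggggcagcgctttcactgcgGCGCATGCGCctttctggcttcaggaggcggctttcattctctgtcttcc

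Complex I was represented by 7 nuclear core subunits, which carry the flavin and iron-sulphur clusters of the electron path, and 31 accessory subunits. Among the core genes, Ndufs1, the large iron-sulphur subunit of the NADH module, was at 127, 135 and 136 CPM in Control-ASO and 113, 124 and 127 CPM in Snhg11-ASO. The ranges met at 127 CPM, and the log2 fold change was -0.13 ± 0.09 (SE, n = 3 per group). Ndufv1, which binds NADH and the flavin, was at 89.6, 93.9 and 93.8 CPM in Control-ASO and 90.6, 89.8 and 99.3 CPM in Snhg11-ASO. The groups overlapped, with Snhg11-ASO replicate 3 above all controls, and Ndufv1 had a log2 fold change of 0.01 ± 0.08. Its partner Ndufv2 had -0.01 ± 0.09. For Ndufs7, next to the ubiquinone site, the log2 fold change was -0.11 ± 0.10, and for Ndufs3 and Ndufs8 the values were -0.05 ± 0.11 and -0.18 ± 0.15. Over the 7 core genes the median deviation was -0.21 in Snhg11-ASO replicate 1, -0.09 in replicate 2 and 0.01 in replicate 3.

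The accessory subunits surround this core and are needed for its assembly and stability. Ndufb2, of the membrane arm, was at 17.0, 17.3 and 18.7 CPM in Control-ASO and 12.5, 14.0 and 15.4 CPM in Snhg11-ASO. It was the subunit gene with the smallest p, and each Snhg11-ASO value was below each control. Its log2 fold change was -0.34 ± 0.13 (95% interval -0.64 to -0.04; unadjusted p = 0.0328 and adjusted p = 0.582 in edgeR, and an exact two-sided permutation test gave 0.10, the smallest that 3 against 3 allows). Ndufb2 shares 145 exonic bases with a neighbouring gene on the same strand.

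Ndufa11, a membrane-arm subunit, was at 25.5, 26.3 and 27.3 CPM in Control-ASO and 18.8, 21.3 and 24.4 CPM in Snhg11-ASO, again without overlap (log2 fold change -0.29 ± 0.13, adjusted p = 0.618 in edgeR). Ndufa6, an LYR-motif accessory protein, was at 39.30, 41.9 and 44.2 CPM in Control-ASO and 29.1, 37.2 and 39.28 CPM in Snhg11-ASO, and its groups only just parted (-0.25 ± 0.13). Ndufs4, whose loss in mice gives a Leigh-like encephalopathy, was at 37.7, 40.9 and 40.6 CPM in Control-ASO and 30.0, 36.0 and 37.4 CPM in Snhg11-ASO (-0.21 ± 0.11). With Atp5o of complex V, these 4 complex I genes were the only subunit genes whose groups did not overlap, all 5 of them lower in Snhg11-ASO. Groups did not overlap for 15.4% of all 19969 genes and were lower without overlap for 7.7%, and the 5 subunit genes were 6.02% of 83. Both shares depend on the libraries kept. Without Snhg11-ASO replicate 3, 44 subunit genes were lower without overlap (12.6% of all genes). Without replicate 1 there were 6 lower (13.5% of all genes) and 3 higher, and without replicate 2 there were 5 lower (11.9%). Without Control-ASO replicates 1, 2 and 3 there were 16, 9 and 7 lower (11.2%, 13.8% and 11.2% of all genes).

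Ndufa1, an X-linked membrane-arm subunit, was at 24.3, 26.4 and 29.6 CPM in Control-ASO and 18.8, 22.1 and 24.3 CPM in Snhg11-ASO, with a log2 fold change of -0.30 ± 0.14. The groups met at 24.3 CPM. The 15 Ndufa genes had a median deviation of -0.46, -0.10 and 0.07 in the Snhg11-ASO libraries. For the 10 Ndufb genes these were -0.34, -0.13 and 0.09. Replicate 1 was thus lower in the accessory genes than in the core genes, and replicate 3 lay above all controls in the Ndufa and Ndufb medians but among them in the core median. The 3 complex I genes with a higher estimate were Ndufc2 (0.07 ± 0.11), Ndufb9 (0.04 ± 0.13) and Ndufv1.

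Complex II, succinate dehydrogenase, also belongs to the tricarboxylic acid cycle. Sdha, its flavoprotein, was at 213, 244 and 251 CPM in Control-ASO and 203, 227 and 239.5 CPM in Snhg11-ASO (log2 fold change -0.08 ± 0.11). Sdhb, the iron-sulphur subunit, was at 65.0, 67.5 and 59.5 CPM in Control-ASO and 57.8, 57.9 and 67.5 CPM in Snhg11-ASO (-0.07 ± 0.10). Both overlapped between groups. The membrane anchors were Sdhc, at 48.7 to 51.1 CPM in Control-ASO and 34.7, 54.1 and 53.1 CPM in Snhg11-ASO (-0.07 ± 0.17), and Sdhd (-0.10 ± 0.11). Sdhc was low in replicate 1 and above every control in the other two Snhg11-ASO libraries, so that without replicate 1 its estimate was 0.11.

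Complex III was represented by 3 larger nuclear subunits and 5 small ones, since cytochrome c1 (Cyc1) falls outside the naming rule. The core subunits Uqcrc1 and Uqcrc2 had log2 fold changes of -0.04 ± 0.08 and -0.09 ± 0.08, and Uqcrfs1, the Rieske iron-sulphur protein, -0.08 ± 0.09. Uqcrc1 was at 115, 118 and 109 CPM in Control-ASO and 117, 104 and 111 CPM in Snhg11-ASO, and replicate 1 was here the highest of its group. Uqcrh, the hinge protein that assists cytochrome c docking, was at 92.8, 96.6 and 94.5 CPM in Control-ASO and 69.3, 80.4 and 99.3 CPM in Snhg11-ASO (-0.19 ± 0.14). Uqcrq and Uqcr10 followed with -0.16 ± 0.16 and -0.13 ± 0.14. The 3 larger subunits had a median deviation of -0.17 in replicate 1 and the 5 small ones -0.44.

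Complex IV, cytochrome c oxidase, has several subunits with a broadly used isoform and one restricted to muscle, lung, testis or other tissues. Per transcript length, its most abundant nuclear subunit gene was Cox8a. This gene was at 159, 174 and 166 CPM in Control-ASO and 116, 159.5 and 166 CPM in Snhg11-ASO (log2 fold change -0.17 ± 0.15). Only replicate 1 lay below the controls. Cox4i1, which carries the site of ATP inhibition, was at 206, 208 and 188 CPM in Control-ASO and 159, 171 and 211 CPM in Snhg11-ASO (-0.15 ± 0.12), so the group was split on either side of the controls. Cox7a2 had -0.17 ± 0.15, Cox7b -0.17 ± 0.17, Cox6b1 -0.16 ± 0.18, Cox6a1 -0.08 ± 0.11 and Cox7a2l, a supercomplex factor, -0.09 ± 0.14.

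Levels between genes were compared per length, in TPM (counts per merged exon length, scaled to the same sum in each library). The broadly used isoforms stood far above their tissue isoforms in every library. Cox8a was at 765 ± 37.3 TPM in Control-ASO and 666 ± 109.5 TPM in Snhg11-ASO (SD, n = 3), and Cox8b, the heart and muscle form, at 2.32 ± 2.02 and 1.32 ± 1.06 TPM. Cox4i1 was at 369 ± 7.22 and 326 ± 35.6 TPM, against 1.21 ± 0.24 and 1.05 ± 0.54 TPM for Cox4i2, the form known from lung. The ratio was 202 to 618 over the 6 libraries for Cox4i1 over Cox4i2, 64.9 to 179 for Cox6a1 over Cox6a2, and 94.1 to 288 for Cox6b1 over Cox6b2. Cox8a stood at 194 to 1292 times Cox8b in the 5 libraries with a Cox8b count. It was 31.8 to 83.7 for Cox7a2 over Cox7a1, 68.8 to 317 for Cox7b over Cox7b2, and 91.6 to 139 for Ndufa4 over Ndufa4l2. The lowest ratio was thus still above 30, for Cox7a2 over the muscle form Cox7a1. With principal transcript lengths the ratios were 380 to 1164 for Cox4i1 over Cox4i2, 56.9 to 174 for Cox6b1 over Cox6b2 and 177 to 269 for Ndufa4 over Ndufa4l2. Counts behind the tissue isoforms were small, at 5 to 18 read pairs for Cox4i2, 24 to 44 for Cox6a2, 19 to 77 for Cox6b2, 14 to 64 for Cox7a1 and 0 to 14 for Cox8b, so that their fold changes were wide. Cox8b had -0.77 ± 1.03, Cox6a2 -0.53 ± 0.36, Cox4i2 -0.16 ± 0.48, Cox6b2 0.19 ± 0.50, Cox7a1 0.22 ± 0.51 and Ndufa4l2 -0.08 ± 0.33. For Cox4i2 the direction turned when both strands were counted (0.67).

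**Figure D3:**
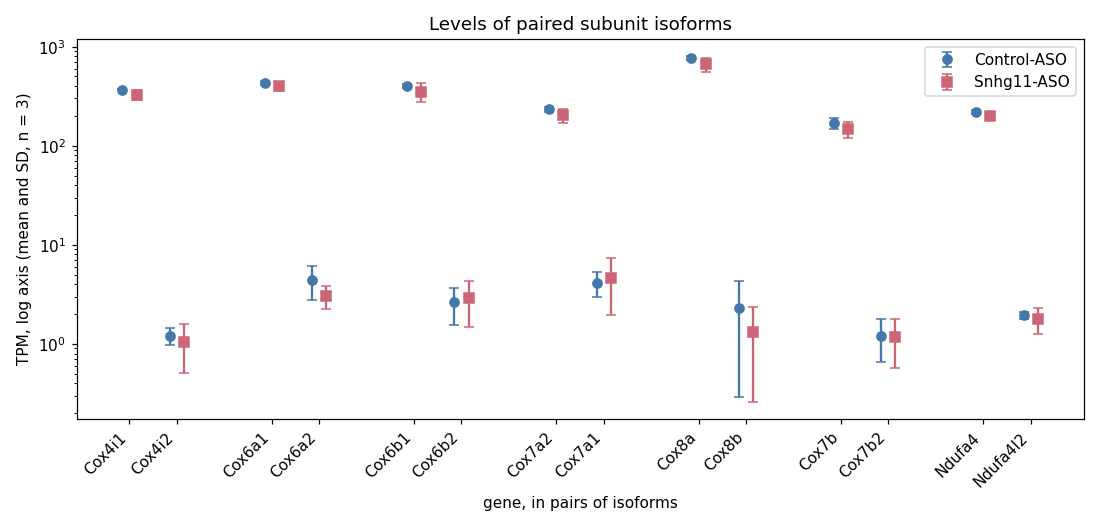
TPM (log axis; mean and SD, n = 3 libraries) is shown for 7 pairs of a broadly used subunit isoform and its tissue isoform in Control-ASO (blue circles) and Snhg11-ASO (red squares). The broad form of each pair is above 100 TPM and the tissue form below 10 TPM, with the 2 groups close together.

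The filter on low counts left out 3 members. Cox7b2, a testis form, had 10, 8 and 4 read pairs in Control-ASO and 12, 4 and 12 read pairs in Snhg11-ASO. Cox8c, also a testis form, had 0 in all libraries, and so did the second identifier of Atp5o, a read-through transcript all of whose 530 exonic bases lie over other exons of the same strand.

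Complex V took the largest summed count of the 5 complexes, at 2032 to 2147 CPM in the Control-ASO libraries against 1583 to 1689 CPM for complex I, although its median level per length was not the highest. The catalytic head is built around alternating alpha and beta subunits, encoded by Atp5a1 and Atp5b, on a central shaft encoded by Atp5c1, Atp5d and Atp5e. Atp5b was at 648, 683 and 647 CPM in Control-ASO and 576, 595 and 649 CPM in Snhg11-ASO (log2 fold change -0.12 ± 0.09), where replicate 3 lay among the controls. Atp5a1 was at 532, 564 and 550 CPM in Control-ASO and 533, 499.7 and 546 CPM in Snhg11-ASO (-0.06 ± 0.09), and here replicate 2 was the lowest. Atp5c1 had -0.06 ± 0.12, Atp5d -0.18 ± 0.11 and Atp5e -0.25 ± 0.24. Atp5e, the small epsilon subunit, was at 35.8, 44 and 36.2 CPM in Control-ASO and 21.7, 33.3 and 42.5 CPM in Snhg11-ASO, from below all controls to within their range.

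Of the stalk subunits, Atp5o (the oligomycin sensitivity subunit) was at 34.2, 35.2 and 34.4 CPM in Control-ASO and 23.4, 31.9 and 33.3 CPM in Snhg11-ASO. The groups did not overlap, and the log2 fold change was -0.23 ± 0.15 (adjusted p = 0.729 in edgeR). Atp5h had -0.15 ± 0.11. The membrane ring of c subunits is encoded by 3 genes that give the same mature protein. Atp5g3 was at 117 ± 5.0 TPM in Control-ASO and 112 ± 3.84 TPM in Snhg11-ASO, Atp5g1 at 25.6 ± 3.03 and 22.4 ± 3.07 TPM, and Atp5g2 at 14.7 ± 1.74 and 12.6 ± 0.80 TPM. The 3 levels were apart by more than their spread, but 87.4% of the 50-base windows of the Atp5g2 transcript occur in transcripts of other annotated genes, and read pairs placed at several sites were not counted. Their log2 fold changes were -0.04 ± 0.09 (Atp5g3), -0.17 ± 0.15 (Atp5g1) and -0.21 ± 0.17 (Atp5g2).

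The small membrane subunits link the rotor side to the dimer interface. Atp5k, subunit e, was at 59.5, 56.9 and 53.2 CPM in Control-ASO and 36.8, 48.6 and 56.4 CPM in Snhg11-ASO (-0.26 ± 0.16). Atp5j2, subunit f, was at 63.7, 69.2 and 62.5 CPM in Control-ASO and 35.5, 61.1 and 64.9 CPM in Snhg11-ASO (-0.28 ± 0.22), so replicate 1 was far below the controls and replicate 2 slightly below. Atp5l, subunit g, went the other way, at 19.2, 18.3 and 14.5 CPM in Control-ASO and 23.5, 17.3 and 17.4 CPM in Snhg11-ASO (0.16 ± 0.18). It is also a gene for which 68.5% of windows are shared with other annotated transcripts. The steepest single deviation of the complex was Atp5s, coupling factor B, at 8.36 to 9.02 CPM in Control-ASO and 4.14, 8.66 and 9.02 CPM in Snhg11-ASO.

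Among the 83 genes tested, TPM over the 6 libraries ranged from 1.13 (Cox4i2) to 715 (Cox8a), with a median of 83.4. After Cox8a came Atp5a1 (486 TPM) and Atp5b (423 TPM), and just above Cox4i2 came Cox8b (1.82 TPM) and Ndufa4l2 (1.86 TPM). Median levels were 64.9 TPM in complex I, 97.5 in complex II, 134 in complex III, 93.2 in complex IV and 92.2 in complex V. The order depends on the length used. Merged exons include long non-coding transcripts of some genes, and with the length of the principal coding transcript instead, Atp5b was first (773 TPM), then Cox8a (666 TPM) and Cox4i1 (583 TPM).

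Deviations were also set against transcript length. In Snhg11-ASO replicate 1 the lowest was Atp5s (-1.05, principal transcript of 1599 bases), followed among the abundant genes by Atp5j2 (-0.87, 955 bases), Atp5e (-0.83, 421 bases) and Ndufc1 (-0.82, 1249 bases). Nearest to 0 were Ndufv1 (-0.03), Atp5a1 (-0.04) and Uqcrc1 (0.04). The 50 subunit genes with a principal transcript under 1000 bases had a median deviation of -0.40, and the 25 genes from 1000 to 2000 bases -0.28. Spearman's rho between deviation and length over the 83 genes was 0.29 in replicate 1, 0.04 in replicate 2 and -0.17 in replicate 3, given as a description over genes that share their libraries. The 848 protein-coding genes under 1000 bases, subunit genes included, had medians of -0.22, 0.00 and 0.15 in Snhg11-ASO replicates 1 to 3, against -0.40, -0.11 and 0.07 for the subunit genes of that length, so both lists had the same order of libraries and the subunit genes lay lower in each. The part of transcript length in the subunit values was not tested. With offsets for merged exonic length in the fit, the median log2 fold change of the subunit genes was -0.09. That fit was added after the data were seen, and its length is not that of the principal transcript.

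**Figure D4:**
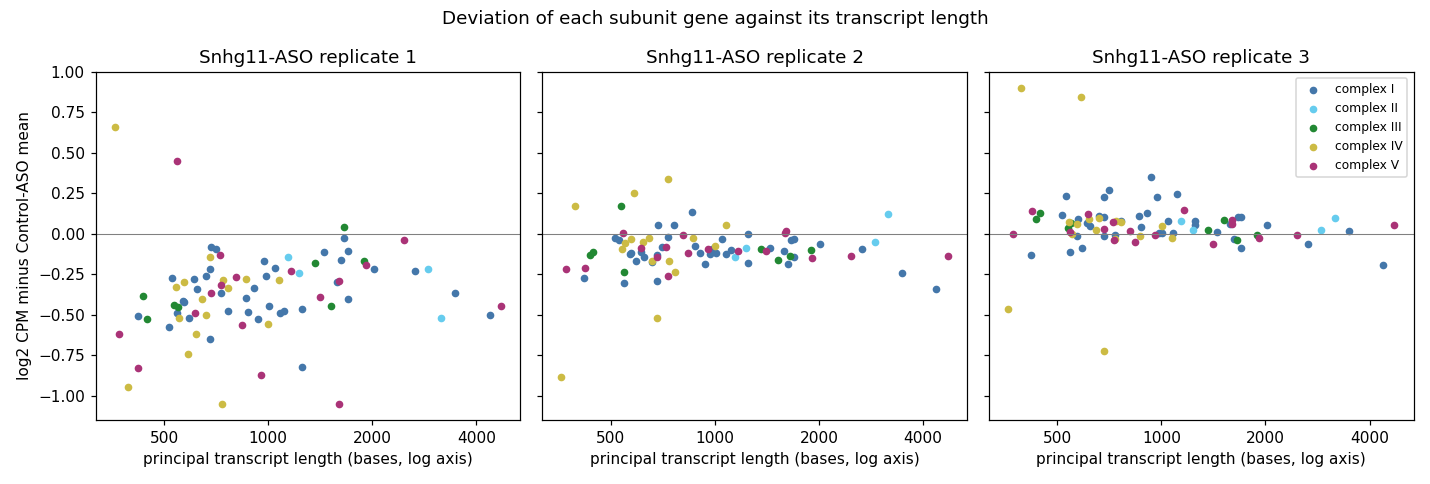
Each point is 1 of the 83 subunit genes, with the length of its principal transcript on a log axis and its log2 CPM minus the Control-ASO mean, in each Snhg11-ASO library and coloured by complex. In replicate 1 most points lie below 0, with Atp5s at -1.05 the lowest, while in replicate 3 most lie slightly above 0.

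Other genes of the pathway were taken from fixed lists. None of them passed an adjusted p of 0.05 in edgeR, where 0 of the 19969 genes tested did. The 13 subunits encoded by mitochondrial DNA are transcribed apart from the nuclear ones, and 8 of them could be tested, with 6 lower, 2 higher and a median log2 fold change of -0.20. Among the 2 higher was mt-Nd3, which had only 11 to 25 read pairs a library. It is counted in these totals and in the medians. Mt-Nd1 was at 2406, 2518 and 2399 CPM in Control-ASO and 2164, 2159 and 2184 CPM in Snhg11-ASO, without overlap (-0.17 ± 0.10). Mt-Co1 overlapped, at 7009, 7942 and 6563 CPM against 6435, 6781 and 6654 CPM (-0.11 ± 0.13). Library medians over these 8 genes were -0.17, -0.14 and -0.20 in the Snhg11-ASO libraries and 0.02, 0.14 and -0.16 in the controls, so Snhg11-ASO replicate 1 did not stand apart here. The remaining 5 (mt-Nd4l, mt-Co2, mt-Co3, mt-Atp6 and mt-Atp8) had 0 to 2 read pairs in every library, where mt-Co1 had 206180 to 290528.

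Cytochrome c itself (Cycs), cytochrome c1 (Cyc1) and the ATP synthase inhibitor Atpif1 fall outside the naming rule. In all 3 the groups did not overlap and Snhg11-ASO was lower, as for 7.7% of all genes. Cycs was at 37.8, 37.9 and 39.7 CPM in Control-ASO and 28.4, 35.3 and 35.3 CPM in Snhg11-ASO (log2 fold change -0.22 ± 0.12), and the others had -0.16 ± 0.09 (Cyc1) and -0.28 ± 0.14 (Atpif1). Among 44 tested assembly factors, 33 were lower and 11 higher with a median of -0.09. At an unadjusted p under 0.05 in edgeR there was 1 of the 44 (2.27%, against 8.11% of all genes). It was Cox18 (0.36 ± 0.14, adjusted p = 0.586 in edgeR). Of 16 genes of the tricarboxylic acid cycle and pyruvate dehydrogenase, 13 were lower with a median of -0.10. Library medians of this list were -0.21, -0.07 and -0.06 in Snhg11-ASO. Mitochondrial ribosomal proteins (49 of 77 lower, median -0.04) and cytosolic ribosomal proteins (40 of 93 lower, median 0.03) lay closer to the value over all genes.

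Regulators of mitochondrial biogenesis showed no common direction, with 6 of 13 lower and a median of 0.02. Ppargc1a, the coactivator PGC-1α that drives OXPHOS gene expression, was at 46.2, 42.9 and 51.2 CPM in Control-ASO and 31.2, 34.5 and 38.2 CPM in Snhg11-ASO. All Snhg11-ASO values lay below all controls, and the log2 fold change was -0.43 ± 0.12 (unadjusted p = 0.00804 and adjusted p = 0.492 in edgeR). Groups did not overlap for 15.4% of all genes and for 2 of the 13 regulators (15.4%), the other being Twnk (-0.14 ± 0.13). Nrf1 and Gabpa, the factors named above, overlapped between groups, with 0.07 ± 0.13 and 0.05 ± 0.10. Yy1 was at 61.1, 61.9 and 62.4 CPM in Control-ASO and 87.6, 63.6 and 61.8 CPM in Snhg11-ASO (0.20 ± 0.14), and Gabpb1, the partner of Gabpa, at 13.9, 11.8 and 13.2 CPM against 24.6, 14.4 and 12.7 CPM (0.41 ± 0.26). Both were higher in Snhg11-ASO replicate 1 than in any other library. Of 6 general neuronal markers 5 had a lower estimate in Snhg11-ASO, with summed levels of 3816 to 4227 CPM in Control-ASO and 3499 to 3866 CPM in Snhg11-ASO. Syt1, the synaptic calcium sensor, was at 913 to 987 CPM in Control-ASO and 725 to 796 CPM in Snhg11-ASO (-0.32 ± 0.10, adjusted p = 0.528 in edgeR), while Slc17a7, the vesicular glutamate transporter, had 0.06 ± 0.11. Of the dentate granule cell markers 2 of 3 had a higher estimate (median 0.30), with summed levels of 159 to 200.4 CPM in the controls against 187 to 257 CPM. Of the pyramidal cell markers 2 of 3 had a higher estimate (median 0.37), with summed levels of 147 to 207 CPM in the controls against 172 to 215 CPM. The part of neuronal content was not tested.

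**Figure D5:**
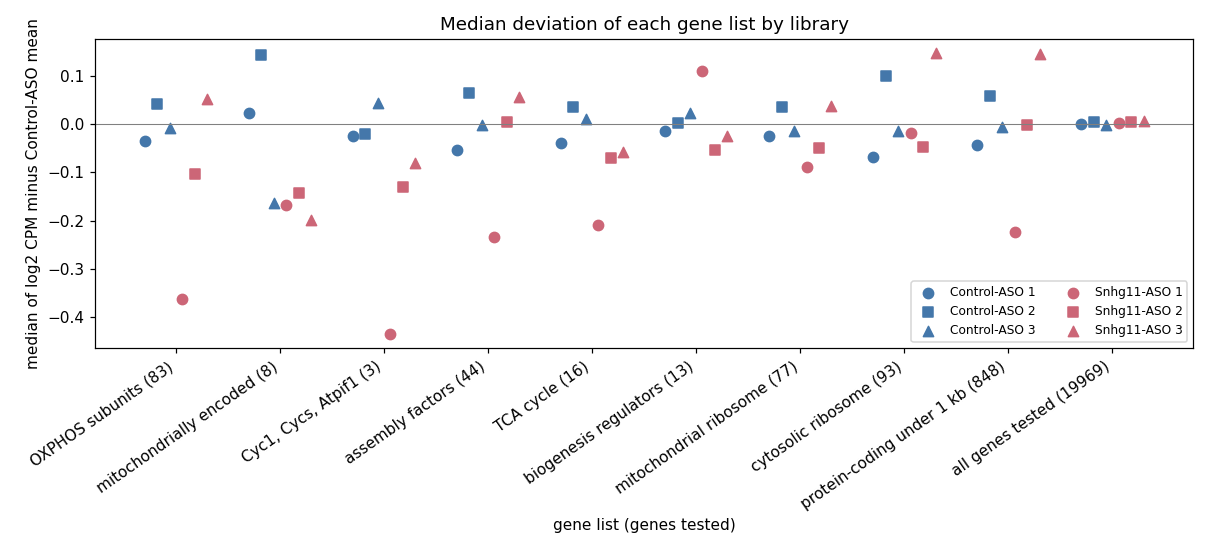
For each gene list (number of genes tested in parentheses), points give the median over genes of log2 CPM minus the Control-ASO mean in each of the 6 libraries (blue, Control-ASO; red, Snhg11-ASO; circle, square and triangle for replicates 1 to 3). Snhg11-ASO replicate 1 is lowest for the OXPHOS subunits (-0.36) and for Cyc1, Cycs and Atpif1 (-0.44). The mitochondrially encoded subunits lie at -0.14 to -0.20 in all 3 Snhg11-ASO libraries, and Control-ASO replicate 3 lies within that range (-0.16).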

How the data were processed

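Strand-specific, ribosomal RNA-depleted total RNA libraries were sequenced by the authors as 50 bp read pairs and aligned to mm10 with STAR 2.5.2a. The deposited files hold whole-number gene counts by STAR, and the column for the reverse strand (over 96% of stranded counts) was used. The study's methods name another counting tool, and the annotation is not given in the sources used here. Symbols came from GENCODE M21, which matched 55141 of 55401 identifiers. Lines that name no gene (43.5% to 51.4% of read pairs) stayed out of library sizes.

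Counts were tested in edgeR 4.0.16 (TMM factors 0.982 to 1.02, filterByExpr with a minimum count of 10, quasi-likelihood test, Benjamini-Hochberg adjustment over all genes tested, threshold 0.05). The SE is the fold change over the root of F, and log2 CPM used a prior count of 2. Alternatives were DESeq2 1.42.0, other scalings, strands and filters, a replicate block, offsets for GC content, genomic span and exonic length, and leaving out each library. The offsets for exonic length were added after the data were seen. TPM came from the deposited counts over merged exon lengths. Genes named in the text are those with the 4 smallest p in each complex, those whose groups do not overlap, the catalytic subunits and paired isoforms, the 3 most and least abundant, and those left out by the filter; other members (Ndufc1, Ndufc2, Ndufb9, Atp5j2, Atp5l, Atp5s) were named after their values were seen. Members and lists were chosen with earlier results of these data known.

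Same-numbered libraries of the 2 groups deviated together (correlations 0.297, 0.179 and 0.103 over genes), although Control-ASO replicate 2 and Snhg11-ASO replicate 3 also correlated (0.188). The main fit, its intervals and the permutation tests did not use the numbers as pairs, and the fit with a block is an alternative. The labels tie no animals together. P-values cover the spread between these animals only, and all 3 Snhg11-ASO libraries were kept. The study left 1 unnamed Snhg11-ASO sample out of its analysis, and the alternatives drop each of them in turn. The values of 1 member are not reported here, although it is counted in the totals and medians.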

Additional observations from a re-analysis of the deposited data

How the results depend on the processing

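No subunit gene was called in any of 22 alternative fits. Among all genes the count went from 0 to 258 with DESeq2, and to 0 to 2 in edgeR when 1 library was left out (2 without Snhg11-ASO replicate 1). It was at most 322 with DESeq2 on both strands and 1 Snhg11-ASO library left out, which changes the tool, the strand and the library together. The leave-out ranges below take in these joint fits. With a replicate block, which follows the pairing of the numbers, 0 genes were called and the median log2 fold change of the subunit genes was -0.13. The block changed no call. Snhg11 had a log2 fold change of -2.12 in DESeq2, where it was called, and -2.56 to -1.83 with 1 library left out. The median of the subunit genes was -0.14 to -0.09 under the other settings and -0.23 to -0.01 with 1 library left out (-0.23 to -0.02 in edgeR alone). The complexes were at -0.22 to -0.0049 (I), -0.17 to -0.01 (II), -0.21 to -0.02 (III), -0.26 to -0.01 (IV) and -0.26 to -0.03 (V) with 1 library left out.

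Direction turned under some alternative for 16 of 47 named genes, 13 of them only on leaving out a library (11 in edgeR, and Cox6a2 and Cox8b only in the joint fits); the cause was not tested. Turned by another setting were Cox4i2 on both strands (0.67), Ndufv1 with upper-quartile scaling (-0.006), GC offsets (-0.0003) and GC offsets with the replicate block (-0.0013), and Ndufv2 with GC offsets (0.0067), GC offsets with the block (0.0057) and exonic length offsets (0.0034). With 1 library left out, the ranges were -0.19 to 0.038 for Atp5c1, -0.12 to 0.012 for Atp5g3, -0.53 to 0.98 for Cox4i2 (at most 0.18 in edgeR), -0.17 to 0.027 for Cox6a1, -0.80 to 0.066 for Cox6a2, -0.32 to 0.036 for Cox6b1, -0.25 to 0.64 for Cox6b2, -0.33 to 0.59 for Cox7a1 and -0.17 to 0.031 for Cox7a2l. They were -1.56 to 0.16 for Cox8b, -0.37 to 0.12 for Ndufa4l2, -0.13 to 0.029 for Ndufs3, -0.053 to 0.045 for Ndufv1, -0.087 to 0.049 for Ndufv2, -0.18 to 0.12 for Sdhc and -0.085 to 0.0023 for Uqcrc1. Depth limits the tissue isoforms of complex IV, some of which rest on fewer than 20 read pairs a library.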
